A study of Mus musculus with 48 samples.

Results

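The region described here is a stretch of the mouse immunoglobulin kappa (Igκ) light chain locus, from 69.7 to 70.15 Mb of chr6 on mm9, that holds the distal part of the Vκ genes of the last sub-domain before Jκ. Its members are all junctions whose prey position lies in that interval. They number 1380647 of the 8250887 junctions in the 48 libraries, which is 16.7%, and 19.004% of the 7265223 junctions of the whole Vκ part of the locus from 67.5 to 70.66 Mb. Junctions of that whole part are called Vκ junctions below, and shares are percentages of them unless another base is named.

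Junctions were recovered by HTGTS-JoinT-seq, which reads outward from a fixed bait end at the RAG1/2 break beside Jκ1 and reports the position that was joined to it. The bait was either the Jκ1 coding end or the Jκ1 signal end. The cells were vAbl pro-B cells, mouse progenitor B cells transformed with the Abelson kinase, with a WT line and a *Ku70-/-* line that were each 1 clone per the paper. For each genotype and bait there were 3 libraries in each of 4 treatments, which were cycling cells, STI-571 with DMSO, STI-571 with L67 and STI-571 with L82-G17. STI-571 was given at 3 µM for 96 h, L67 at 5 µM and L82-G17 at 25 µM. L67 inhibits DNA ligases I and III and L82-G17 inhibits DNA ligase I. Since each genotype is 1 clone, loss of Ku70 and other differences between the lines cannot be told apart. Junctions do not measure Ku70 itself, so the genotype labels could not be checked against it.

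In V(D)J recombination the RAG1/2 endonuclease cuts between a gene segment and its recombination signal sequence (RSS), a conserved heptamer and nonamer set apart by a spacer. The cut leaves a hairpin-sealed coding end and a blunt signal end. Nonhomologous end joining then opens and joins coding ends with small losses and additions and joins signal ends almost without change. Ku70 is a subunit of the Ku complex that binds the ends at the start of that pathway, and ends joined without it are joined by alternative end joining. STI-571 blocks the Abelson kinase, arrests vAbl cells in G1 and lets RAG act on Igκ. A joint between a coding end and a signal end is called a hybrid joint.

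The annotation places 18 Vκ genes in the region. Of these, 17 lie on the minus strand, so that joining their coding end to that of Jκ1 inverts the DNA between them. Igkv8-26 lies on the plus strand, where joining the coding ends deletes it. Break sites were placed from the signal end pileups of the arrested WT libraries, and 21 of the 138 sites of the Vκ part fell in the region. Of the 21, 19 are inversional and 2 are deletional, against 75 inversional and 63 deletional sites over the whole Vκ part. Of the 18 genes, 16 have a site, each 1 base past the annotated end of the gene, which is where the V exon meets its RSS. Igkv12-47 and Igkv1-35 have none. The remaining 5 sites have no annotated Vκ gene at them, and 3 of these, site 69829343, site 69994105 and site 70104573, carried a mean of at least 0.1% of Vκ junctions in some group.

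The sequences at the sites show what the ends hold. Each line below gives the last 20 bases of the coding side in lower case, then the heptamer in capitals, the spacer of 12 bases in lower case and the nonamer in capitals, 5′ to 3′ on the strand of the gene, read from mm9. They are shown for the 6 most used sites of each bait in arrested WT, the 2 most used unannotated sites and the annotated genes without the consensus heptamer. The intervals are chr6:69764597-69764644 for Igkv12-44, chr6:69714489-69714536 for Igkv12-46, chr6:69808386-69808433 for Igkv12-41, chr6:69829316-69829363 for site 69829343 and chr6:69850390-69850437 for Igkv5-39. They are chr6:69994078-69994125 for site 69994105, chr6:70023990-70024037 for Igkv6-32, chr6:70121775-70121822 for Igkv8-27 and chr6:70143772-70143819 for Igkv8-26. All but Igkv8-26 are on the minus strand.
Igkv12-44: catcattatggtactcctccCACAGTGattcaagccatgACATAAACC
Igkv12-46: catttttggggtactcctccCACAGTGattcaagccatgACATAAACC
Igkv12-41: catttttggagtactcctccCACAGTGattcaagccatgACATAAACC
site 69829343: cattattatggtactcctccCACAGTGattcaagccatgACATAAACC
Igkv5-39: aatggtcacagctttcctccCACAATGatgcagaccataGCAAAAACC
site 69994105: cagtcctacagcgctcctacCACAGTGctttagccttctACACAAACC
Igkv6-32: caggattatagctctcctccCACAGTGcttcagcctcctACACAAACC
Igkv8-27: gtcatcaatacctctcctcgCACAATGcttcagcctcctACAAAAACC
Igkv8-26: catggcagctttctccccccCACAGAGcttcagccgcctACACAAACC

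The consensus heptamer CACAGTG stands at 15 of the 21 sites of the region and at 111 of all 138. Igkv5-39, Igkv8-27, site 70094189 and site 70104573 have CACAATG, Igkv8-26 has CACAGAG and site 70031645 has CACAGGA. Igkv12-46, Igkv12-44, Igkv12-41, Igkv12-38 and site 69829343 share the same heptamer, spacer and nonamer. Of these, Igkv12-38 was little used, with at most 0.713% of Vκ junctions in any library given STI-571 with DMSO. Igkv8-27 is the site with G as its last coding base among the region's sites with at least 100 junctions. Igkv5-45 and Igkv5-43 are identical over the first 193 bases of their coding side and 135 bases of their signal side. At least 99.9888% of their preys reached the first base that differs. How surely such bases divide the junctions between these 2 genes was not tested, so that their split remains uncertain.

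Joints at Igkv12-44, Igkv8-27 and Igkv6-32 in cells given STI-571 with DMSO are printed next. For WT they are those with the highest median share over libraries. The *Ku70-/-* joints are examples and need not be the most frequent of their kind in the group or in each library. Each line holds the last 20 bases of the bait in lower case and the first 30 bases of the prey in capitals, 5′ to 3′ as the read runs, taken from mm9 at the reported positions. Bases that align to both are printed with the bait.
Igkv12-44, WT, coding bait to coding end: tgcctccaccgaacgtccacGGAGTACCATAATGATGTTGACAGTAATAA
Igkv12-44, WT, signal bait to signal end: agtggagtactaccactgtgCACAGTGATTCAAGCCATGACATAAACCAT
Igkv12-44, *Ku70-/-*, coding bait to coding end: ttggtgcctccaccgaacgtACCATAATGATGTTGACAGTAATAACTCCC
Igkv12-44, *Ku70-/-*, coding bait to signal end: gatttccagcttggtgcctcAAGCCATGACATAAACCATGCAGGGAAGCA
Igkv12-44, *Ku70-/-*, signal bait to coding end: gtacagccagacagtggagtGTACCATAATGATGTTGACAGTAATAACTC
Igkv12-44, *Ku70-/-*, signal bait to signal end: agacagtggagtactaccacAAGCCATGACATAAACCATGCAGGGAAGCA
Igkv8-27, WT, coding bait to coding end: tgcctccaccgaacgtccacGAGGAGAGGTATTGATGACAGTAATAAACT
Igkv8-27, WT, signal bait to signal end: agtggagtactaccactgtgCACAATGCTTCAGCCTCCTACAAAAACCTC
Igkv8-27, *Ku70-/-*, coding bait to signal end: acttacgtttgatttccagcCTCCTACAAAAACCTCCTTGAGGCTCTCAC
Igkv6-32, WT, signal bait to signal end: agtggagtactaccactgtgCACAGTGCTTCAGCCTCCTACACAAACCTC
Igkv6-32, *Ku70-/-*, signal bait to coding end: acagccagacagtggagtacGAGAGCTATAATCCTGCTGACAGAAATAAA

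In WT cells the signal joint of Igkv12-44 kept the whole heptamer on both sides, and this sequence made up 95.1 to 96.8% of that gene's signal end joints in the 3 libraries. The WT coding joint shown had lost 3 bases of Igkv12-44 and none of Jκ1 and made up 26.7 to 27.9%. In *Ku70-/-* cells the Igkv12-44 coding joint shown had lost 6 bases of Igkv12-44 and 4 of Jκ1 and shared 2 bases, and it made up 2.04 to 10.2%. The Igkv8-27 hybrid joint shown had lost 10 bases of the signal end and 24 of Jκ1, shared 4 bases and made up 1.34 to 6.08%. In single *Ku70-/-* libraries 1 such joint could hold most joints of a gene to that kind of end, since the signal joint of Igkv12-44 ranged from 0.921 to 99.6% of them and the Igkv6-32 hybrid from 0.194 to 77.2%, both highest in replicate 1.

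Libraries differed in depth and in one case in composition. Each was taken down to 500000 read pairs, arrested libraries held 116039 to 385847 junctions and cycling libraries 8294 to 32108. In the region, *Ku70-/-* cycling libraries held only 638 to 2265 junctions, and these were 53 to 192 distinct joints. Replicate 1 of *Ku70-/-* cells given STI-571 with DMSO stood apart with both baits. It held 161 distinct joints with the coding bait and 192 with the signal bait, where replicates 2 and 3 held 2136 to 2531. Its 10 most frequent joints made up 63.8% and 70.3% of its region junctions, against 4.39 to 5.39% in replicates 2 and 3. For junctions counted as deposited, the main differences that use this group are also given from its replicates 2 and 3 alone, a choice made after seeing the data. Differences under other bases or windows are given with all 3 libraries only. A comparison of 3 with 2 libraries cannot go below p = 0.1 by the exact permutation test either.

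The region took overlapping shares of Vκ junctions in both arrested genotypes with the coding bait, and a larger share in *Ku70-/-* cells with the signal bait. With the coding bait the STI-571 with DMSO libraries gave 19.6, 19.2 and 18.8% in WT and 17.8, 20.3 and 20.0% in *Ku70-/-*, which overlap, and the difference of means was 0.208 points (exact permutation p = 0.9). Without replicate 1 both *Ku70-/-* libraries were above all WT libraries, by 0.988 points (exact permutation p = 0.1). With the signal bait they gave 15.8, 15.9 and 15.6% in WT and 25.3, 21.8 and 22.3% in *Ku70-/-*. No library overlapped there, and the means lay 7.42 points apart, or 6.34 points without replicate 1. The exact permutation test over libraries, two-sided here and below, gave p = 0.1, and a comparison of 3 with 3 libraries cannot go lower. Against all junctions of a library in place of Vκ junctions the coding bait share was lower in *Ku70-/-*, by -3.65 points. Signal minus coding bait was -3.45 points in WT and 3.76 points in *Ku70-/-*, with no overlap in either genotype (exact permutation p = 0.1 in each). Without replicate 1 of both baits the *Ku70-/-* difference was 1.90 points, again with no overlap, and the exact permutation test gave p = 0.333, the smallest that 2 against 2 libraries allow. Counting each distinct joint once, *Ku70-/-* minus WT was 2.66 and 4.67 points with the coding and signal bait (exact permutation p = 0.1 in each), and signal minus coding bait was -0.251 points in WT (exact permutation p = 0.7) and 1.76 points in *Ku70-/-* (exact permutation p = 0.1).

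Arrest went with a lower share in WT signal bait libraries. Cycling WT libraries gave 31.2, 33.9 and 32.6% with the signal bait, all above the arrested ones, a difference of -16.8 points (exact permutation p = 0.1). In coding bait libraries cycling WT gave 19.03, 18.6 and 18.4%, 0.527 points below arrested WT with overlap (exact permutation p = 0.2). In cycling *Ku70-/-* cells the shares were 25.2, 21.2 and 20.4% with the coding bait and 27.8, 21.8 and 26.7% with the signal bait. The cycling WT signal bait libraries held 54 to 66 distinct joints in the region, and with each distinct joint counted once the shares were 22.5, 23.5 and 20.0% against 15.6, 14.2 and 14.1% in arrested WT. In *Ku70-/-* arrested minus cycling was -2.83 points with the coding bait (exact permutation p = 0.1) and -2.29 points with the signal bait (exact permutation p = 0.3). Without replicate 1 these were -2.05 and -3.36 points (exact permutation p = 0.4 and p = 0.3). As shares of all junctions they turned to 1.23 and 8.41 points (exact permutation p = 0.4 and p = 0.1).

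**Figure D1:**
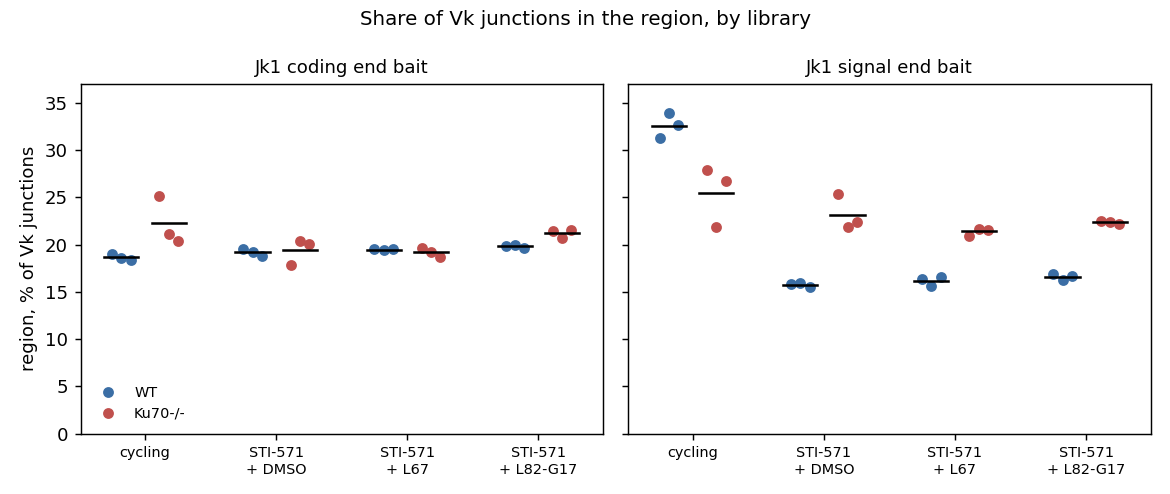
Junctions of the region as a percentage of Vκ junctions (vertical axis) in each library, by treatment (horizontal axis) and bait (panels), with points for the 3 libraries of a group and bars for their means. Arrested points of both genotypes lie between 17.8 and 21.5% with the coding bait, and with the signal bait those of WT lie below those of *Ku70-/-*, and the cycling WT signal bait libraries are the highest at 31.2 to 33.9%.

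Junctions of the region fell on 3874 distinct combinations of prey position and strand. A position was called a pileup when its mean share reached 0.1% in any group, and 227 did so. Of these, 121 are coding end preys, 80 are signal end preys and 26 lie over 200 bp from any site. At 133 the position is within 10 bp of the break, 28 are exactly at it, and 16 exceed 1% of Vκ junctions in some group.

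WT signal bait libraries piled up on few positions. There were 14 signal end pileups under each of the 3 arrested treatments and 16 in cycling cells, all at the break or 1 base beyond it, and together they held 14.8 to 32.2% of Vκ junctions. The sites were placed on signal end pileups of the arrested WT libraries, so that their position at the break is partly built in. The highest was the signal end of Igkv6-32 at 70024017, which held 7.85, 11.7 and 7.72% in cycling WT and 2.12, 1.93 and 1.63% with STI-571 and DMSO. In *Ku70-/-* cells given STI-571 with DMSO the same position held 0, 0.129 and 0.179%.

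The signal end of Igkv12-44 at 69764624 held 4.02, 4.92 and 4.35% in cycling WT and 2.69, 2.56 and 2.52% in WT with STI-571 and DMSO. That of Igkv8-27 at 70121803 held 5.09, 3.39 and 5.28% and 1.03, 1.29 and 1.25% in the same groups, and that of Igkv8-30 at 70067054 held 3.997, 3.05 and 3.56% and 0.788, 1.13 and 0.753%. At all 4 positions every cycling WT library was above every arrested one. Not every much used position was compared in this way. The signal ends of Igkv12-46 and Igkv12-41, among the most frequent in arrested WT, were left out. At an unannotated site described below the order was the opposite.

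WT coding bait libraries spread over more positions. They held 41 to 49 coding end pileups per treatment, from 1 base beyond the break to 7 bases inside it with a median of 2, and these summed to 15.8 to 16.7% of Vκ junctions. The coding end of Igkv12-44 trimmed by 3 bases, at 69764628, held 1.12, 1.16 and 1.18% in WT given STI-571 with DMSO and 0, 0.0546 and 0.0414% in *Ku70-/-*. The untrimmed coding end of Igkv8-27, at 70121803 on the plus strand, held 1.20, 1.15 and 1.19% in WT and 0, 0.0399 and 0.00991% in *Ku70-/-*. No pileup of the other kind of end reached 0.1% in any WT group with either bait.

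*Ku70-/-* cells had pileups of both kinds of end with both baits. With STI-571 and DMSO there were 18 coding and 13 signal end pileups with the coding bait and 19 coding and 10 signal end pileups with the signal bait. Under L67 the counts were 13 and 6 with the coding bait and 18 and 7 with the signal bait. They were 18 and 3, and 9 and 18, under L82-G17. Over replicates 2 and 3 alone the counts with DMSO were 19 and 11 with the coding bait and 19 and 14 with the signal bait.

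Single libraries decided several of them. The Igkv12-44 coding end trimmed by 8 bases, at 69764633, held 4.004% of signal bait Vκ junctions in *Ku70-/-* replicate 1 and 0.192 and 0.105% in replicates 2 and 3. The Igkv12-46 coding end trimmed by 8 bases, at 69714525, held 3.28% there and 0.461 and 0.552% in the others. The Igkv12-46 coding end trimmed by 4 bases, at 69714521, held 6.197% in 1 cycling *Ku70-/-* signal bait library and 0 in the other 2.

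Site totals are the junctions within 200 bp of a break. Igkv12-44, a member of the Igkv12 family, held 2.90, 2.92 and 2.88% of Vκ junctions in WT given STI-571 with DMSO with the coding bait and 2.81, 2.61 and 2.63% with the signal bait. In *Ku70-/-* it held 0.684, 3.11 and 3.07% with the coding bait and 5.21, 4.5002 and 4.19% with the signal bait. Its *Ku70-/-* signal bait libraries were all above the WT ones, while with the coding bait replicate 1 was below and the others above.

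Igkv12-46 held 2.53, 2.53 and 2.34% in WT and 2.77, 3.54 and 2.80% in *Ku70-/-* with the coding bait, and 2.47, 2.51 and 2.91% and 4.28, 2.72 and 2.76% with the signal bait. Igkv12-41 held 1.95, 1.95 and 1.83% in WT and 1.37, 1.74 and 2.20% in *Ku70-/-* with the coding bait. For the signal bait it held 2.25, 2.19 and 1.92% and 4.67, 1.85 and 2.70%. Libraries of the genotypes overlapped for both genes with the signal bait, and for Igkv12-41 with the coding bait too.

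Igkv6-32 held 2.36, 2.41 and 2.30% in WT and 3.02, 3.51 and 3.55% in *Ku70-/-* with the coding bait, with no overlap. In signal bait libraries it held 2.35, 2.10 and 1.78% in WT and 2.17, 3.55 and 3.34% in *Ku70-/-*, with overlap at replicate 1. In cycling WT it held 3.85, 3.30 and 3.12% with the coding bait and 7.91, 11.7 and 7.75% with the signal bait, the highest share of any site of the region.

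Igkv5-39 was the site whose WT shares differed most between baits among those above 1%. It held 2.51, 2.29 and 2.42% with the coding bait and 0.760, 0.838 and 1.04% with the signal bait in WT given STI-571 with DMSO. In *Ku70-/-* it held 0.969, 1.48 and 1.396% with the coding bait and 0.731, 1.46 and 1.91% with the signal bait, where the baits overlapped. Igkv8-28 held 0.264, 0.247 and 0.261% in WT with the coding bait and 0.0386, 0.0228 and 0.0064% with the signal bait. With the signal bait Igkv8-28 held 0.00141, 0.259 and 0.330% in *Ku70-/-*, of which 89.8 and 90.7% were hybrid joints in replicates 2 and 3.

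Igkv8-27 held 2.16, 2.14 and 2.09% in WT and 1.64, 1.79 and 1.95% in *Ku70-/-* with the coding bait. For the signal bait it held 1.10, 1.45 and 1.32% and 0.468, 1.54 and 1.602%. Igkv8-30 held 1.29, 1.46 and 1.34% in WT and 1.97, 1.44 and 1.51% in *Ku70-/-* with the coding bait, and 0.861, 1.17 and 0.829% and 5.01, 2.04 and 1.63% with the signal bait.

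Site 69829343 and site 69994105 had consensus heptamers and no annotated gene. Site 69829343 lies 20465 bp from the nearest annotated gene of its strand, Igkv12-41. It held 1.29, 1.31 and 1.32% in WT given STI-571 with DMSO with the coding bait and 1.10, 1.04 and 1.21% with the signal bait. In cycling WT it held 0.0841, 0.275 and 0.0102% and 0.310, 0.159 and 0.124%, below every arrested WT library.

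Site 69994105 lies 14521 bp from Igkv7-33. It held 1.88, 2.06 and 1.92% in cycling WT with the coding bait and 1.62, 2.05 and 1.19% with the signal bait. With STI-571 and DMSO it held 0.403, 0.575 and 0.482% and 0.318, 0.370 and 0.418%. The 2 sites thus lay in opposite order between cycling and arrested WT. Site 70104573, with the heptamer CACAATG, held 0, 0.304 and 0.439% in cycling WT with the signal bait and at most 0.0509% in any library of the other groups.

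**Figure D2:**
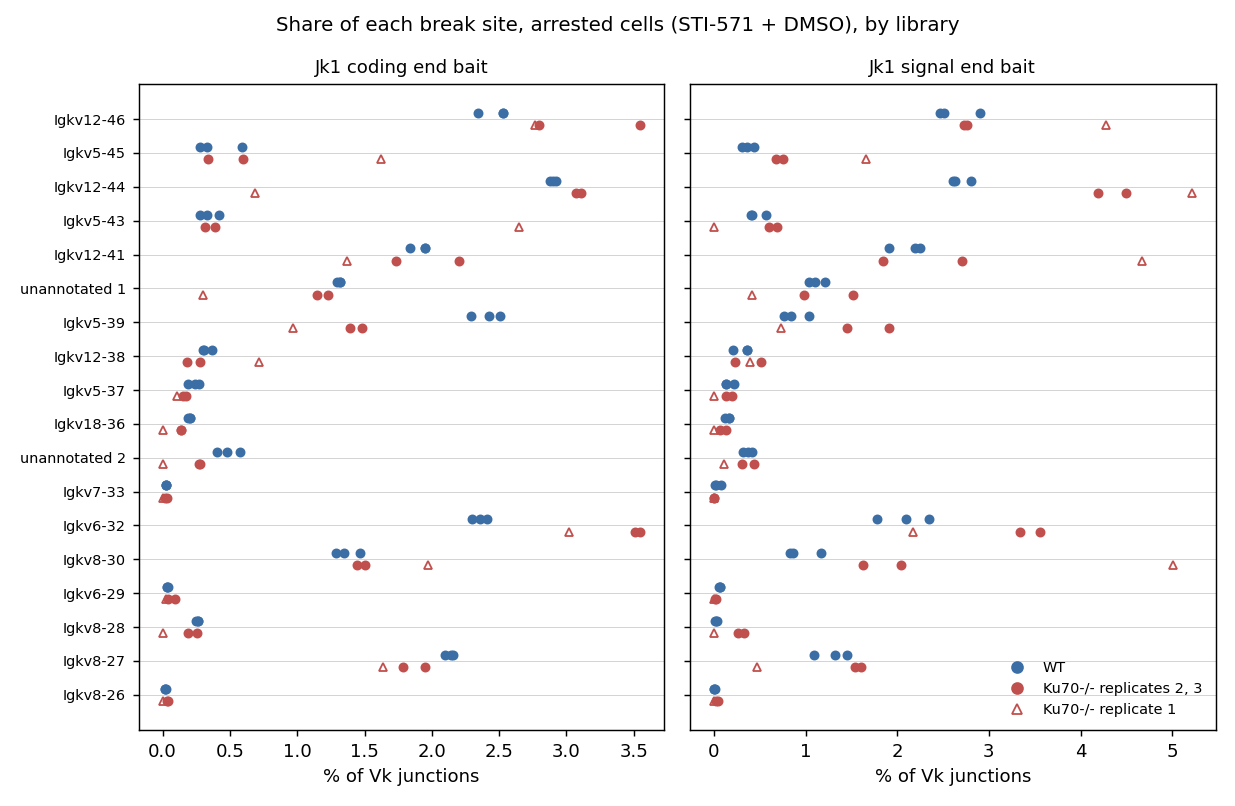
Percentage of Vκ junctions (horizontal axis) within 200 bp of each break site of the region (vertical axis, distal at the top) in cells given STI-571 with DMSO, for the coding bait (left) and signal bait (right). Points are libraries, open triangles are *Ku70-/-* replicate 1, and unannotated 1 and 2 are sites 69829343 and 69994105. Sites below 0.03% in all these libraries are not drawn. WT libraries lie close together at most sites, and the triangle often lies far from both other *Ku70-/-* points, as at Igkv12-44.

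The kind of end joined separated the genotypes. Of junctions within 200 bp of a site, hybrid joints made up 0.281, 0.227 and 0.303% in WT given STI-571 with DMSO and 46.3, 40.9 and 42.7% in *Ku70-/-* with the coding bait. In signal bait libraries they made up 1.47, 0.999 and 1.26% in WT and 80.7, 61.9 and 59.0% in *Ku70-/-*. The differences were 43.0 and 65.9 points (exact permutation p = 0.1 in each, the smallest possible), and 41.5 and 59.2 points without replicate 1. With each distinct joint counted once, hybrids made up 45.0, 46.1 and 46.3% in *Ku70-/-* with the coding bait and 67.9, 57.8 and 55.5% with the signal bait, against 1.27 to 1.72% and 12.3 to 14.3% in WT.

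Hybrids were more frequent with the signal bait than with the coding bait in *Ku70-/-*, by 23.9 points with no overlap (exact permutation p = 0.1), and by 18.7 points without replicate 1 of both baits. Among the most used sites described above, the mean hybrid share with the signal bait in *Ku70-/-* ranged from 44.6% at Igkv8-27 to 76.7% at Igkv12-46, with 70.4% at Igkv12-44 and 56.2% at Igkv6-32. Using the coding bait it ranged from 19.7% at Igkv5-39 to 63.6% at Igkv12-41. The single libraries of these sites ranged widely, as from 2.74 to 48.3% at Igkv12-44 and from 0 to 34.8% at Igkv5-39 with the coding bait. Over replicates 2 and 3 alone the means ranged from 53.3% at Igkv6-32 to 69.9% at Igkv5-39 with the signal bait, where Igkv8-27 was at 59.1%, and from 28.6% at Igkv8-27 to 51.2% at Igkv12-41 with the coding bait.

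Trimming of the Vκ end separated the genotypes as well. Of junctions within 100 bp of a break, 98.1, 98.5 and 98.4% lay within 10 bp in WT with STI-571 and DMSO and 60.3, 53.1 and 53.0% in *Ku70-/-* with the coding bait. With the signal bait 99.6, 99.6 and 99.8% did so in WT and 53.4, 55.1 and 54.7% in *Ku70-/-*. The differences were -42.9 and -45.3 points (exact permutation p = 0.1 in each), and -45.3 and -44.8 points without replicate 1. Since the sites were placed on arrested WT signal bait libraries, the closeness of those to the break is partly built in. The median distance was 2 bases in every WT coding bait library, 0 in every WT signal bait library and 10 bases in every *Ku70-/-* library of both baits.

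Signal ends were trimmed less than coding ends in *Ku70-/-* signal bait libraries. In replicates 2 and 3, 65.5 and 67.2% of signal end preys lay within 10 bp and 48.6 and 46.0% of coding end preys, and 11.3 and 13.4% of signal end preys were exactly at the break against 1.18 and 1.02% of coding end preys. With the coding bait the signal end preys were within 10 bp in 57.4 and 54.5% and the coding end preys in 50.1 and 51.8%. These shares were not tested. Over both kinds of end, signal minus coding bait was -1.07 points (exact permutation p = 1), and 1.87 points without replicate 1 of both baits (exact permutation p = 0.333). The Jκ1 end itself was untrimmed in 45.7 to 46.8% of WT coding bait joints and 95.6 to 96.3% of WT signal bait joints of the region, and in 0.0817 to 1.82% and 7.13 to 13.5% of those of *Ku70-/-*.

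**Figure D3:**
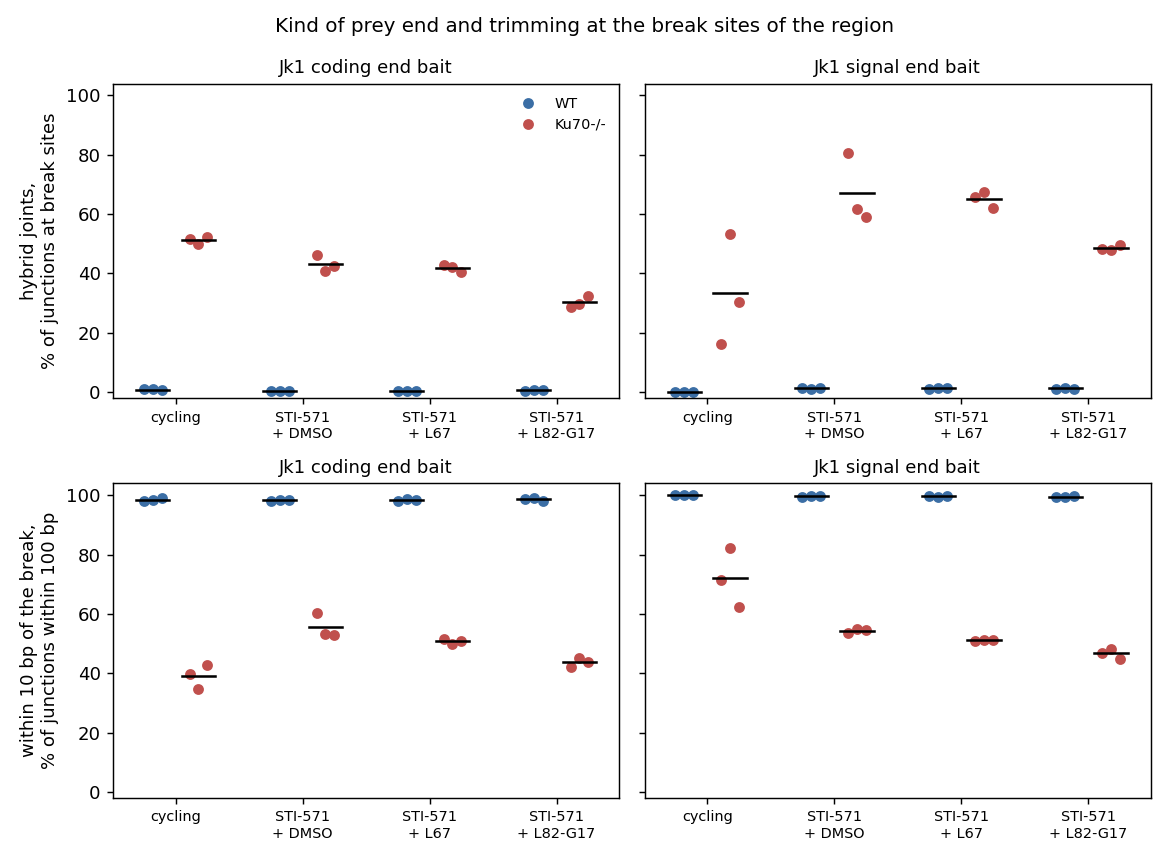
Hybrid joints as a percentage of junctions within 200 bp of a break site (upper row) and junctions within 10 bp of the break as a percentage of those within 100 bp (lower row) in each library, by treatment (horizontal axis) and bait (columns), with bars for group means. WT points lie at or below 1.51% for hybrids and at or above 97.9% for trimming, and no *Ku70-/-* point reaches either level.

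**Figure D4:**
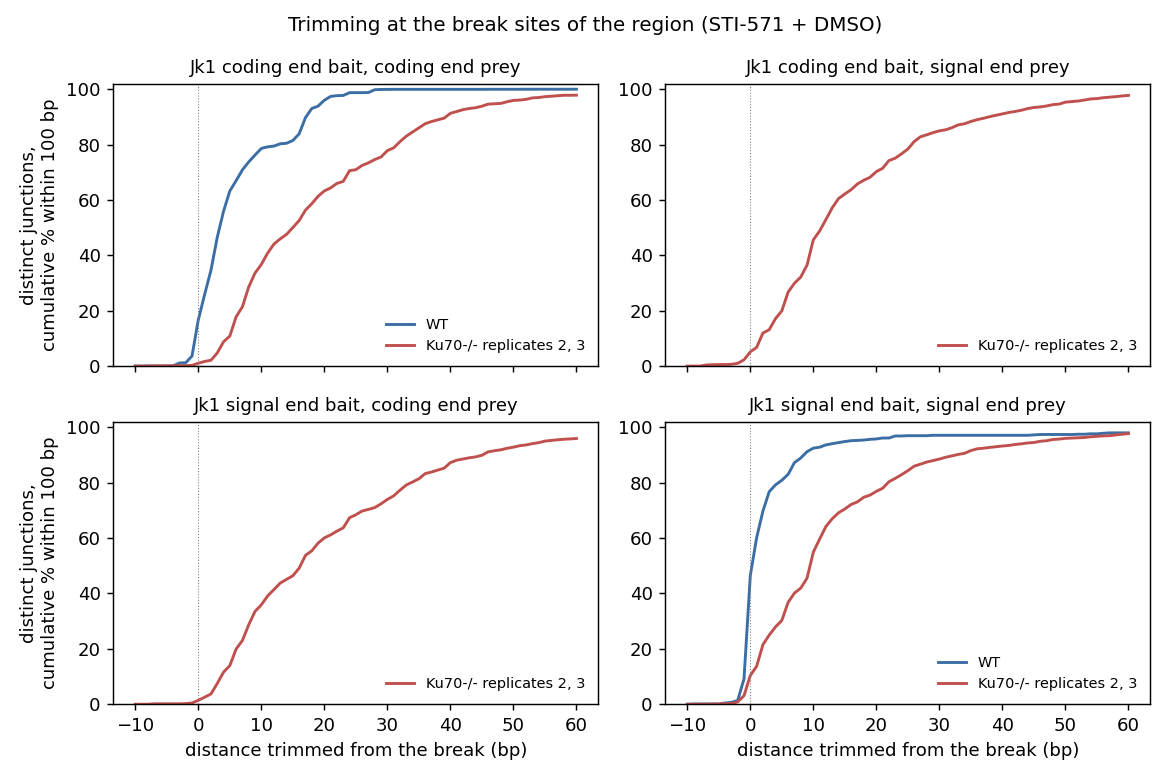
Cumulative percentage of distinct junctions within 100 bp of a break (vertical axis) against the distance trimmed from it in bp (horizontal axis), by bait (rows) and kind of prey end (columns) in cells given STI-571 with DMSO, as the mean of 3 WT libraries or of *Ku70-/-* replicates 2 and 3. WT hybrid joints are not drawn. By 10 bp the single WT libraries behind the curves reach 77.5 to 79.8% of coding ends and 90.5 to 95.2% of signal ends, and the single *Ku70-/-* libraries 34.4 to 55.9%.

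Joint structure was read from the overlap of bait and prey on the read. Overlapping bases were counted as microhomology, a gap as an insertion and neither as a direct joint. Using the coding bait, WT joints given STI-571 with DMSO were 66.4% ± 0.411 direct (SD, n = 3), 17.3% ± 0.415 with a 1-bp microhomology, 0.727% ± 0.0335 with a longer one and 15.6% ± 0.215 with an insertion. *Ku70-/-* joints were 50.7% ± 3.86 direct, 30.7% ± 7.56 with a 1-bp and 16.7% ± 2.96 with a longer microhomology and 1.88% ± 0.970 with an insertion (SD, n = 3). No library overlapped in any of the 4 classes (exact permutation p = 0.1 in each). In the order given *Ku70-/-* minus WT was -15.7, 13.4, 15.9 and -13.7 points, and without replicate 1 it was -13.5, 9.12, 17.6 and -13.2 points, also without overlap.

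For the signal bait, WT joints were 88.1% ± 1.02 direct, 8.73% ± 1.02 with a 1-bp and 0.859% ± 0.289 with a longer microhomology and 2.29% ± 0.369 with an insertion (SD, n = 3). *Ku70-/-* joints were 63.7% ± 10.2 direct, 19.5% ± 5.85 with a 1-bp and 15.8% ± 3.804 with a longer microhomology and 0.981% ± 0.571 with an insertion (SD, n = 3). The order of the genotypes was the same as with the coding bait in every class, again without overlap (exact permutation p = 0.1 in each). The differences were -24.5, 10.8, 14.97 and -1.31 points, and without replicate 1 they were -30.3, 14.1, 17.1 and -0.985 points, also without overlap.

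Between baits in WT, signal minus coding was 21.7 points for direct joints, -8.57 for 1-bp microhomology and -13.3 for insertions (exact permutation p = 0.1 in each), and 0.132 for longer microhomology (exact permutation p = 0.4). With each distinct joint counted once the difference in 1-bp microhomology turned to 3.24 points, that in direct joints was 5.68 points and that in longer microhomology 5.37 points (exact permutation p = 0.1 in each). WT hybrid joints were 0.976 points more frequent with the signal bait (exact permutation p = 0.1), and 11.6 points with distinct joints counted once.

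The size of these differences depended on counting, and for direct joints their direction. Counted once per distinct joint, direct joints made up 24.7, 24.2 and 25.5% in WT and 30.6, 49.1 and 49.5% in *Ku70-/-* with the coding bait, a difference of 18.3 points in the opposite direction. In signal bait libraries they made up 32.1, 33.1 and 26.2% in WT and 29.0, 49.1 and 49.3% in *Ku70-/-*, a difference of 12.004 points with overlap. In the same counting insertions made up 64.1 to 65.3% of WT coding bait joints and 45.7 to 55.0% of WT signal bait joints, against 37.5, 10.6 and 10.3% and 40.0, 13.5 and 14.1% in *Ku70-/-*. The *Ku70-/-* minus WT difference in insertions was then -45.4 points with the coding and -27.99 points with the signal bait (exact permutation p = 0.1 in each), while with the signal bait that in 1-bp microhomology was 6.48 points and that in longer microhomology 9.51 points. Coding bait libraries held 65195 to 70914 region junctions in WT and 17151 to 23468 in *Ku70-/-*. In cycling WT, with 3846 to 5413, direct joints made up 52.0, 49.8 and 42.3% of distinct coding bait joints. The part of depth in these values was not tested. In WT signal bait libraries a few joints held most junctions, since the 10 most frequent made up 86.1 to 86.7% of the region's junctions. With the coding bait the 10 most frequent made up 26.5 to 27.8%.

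**Figure D5:**
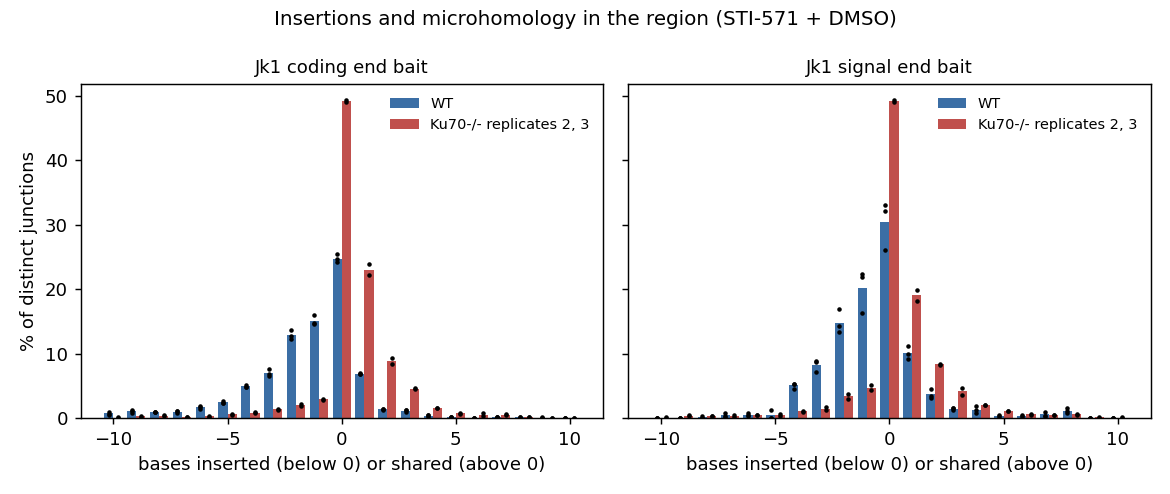
Percentage of distinct junctions (vertical axis) by number of bases inserted (below 0), or shared by bait and prey (above 0), at 0 for direct joints (horizontal axis), in cells given STI-571 with DMSO, for the coding (left) and signal (right) bait. Bars are means and points single libraries, with *Ku70-/-* replicate 1 left out. WT bars extend to the left of 0 and *Ku70-/-* bars to the right, with direct joints at 24.2 to 33.1% in WT and 49.1 to 49.5% in *Ku70-/-*.

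A single gene held most of the 1-bp microhomology of WT signal joints. At Igkv8-27 a 1-bp overlap made up 91.2% of 12835 WT signal bait junctions given STI-571 with DMSO, against 1.35% of 143951 junctions pooled over the 17 other sites with at least 100 junctions. In coding bait libraries it made up 57.0% at Igkv8-27 and 12.3% at the others. The last coding base of Igkv8-27 is G, which is also the last base of the untrimmed signal bait in the joint printed above, so that this base aligns to both. For the same reason its signal end pileup lies 1 base beyond the break. Outside the region 1 site had G there, and 96.2% of its WT signal bait junctions had a 1-bp overlap, against 0.926% at the 100 others.

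Joints at the deletional sites were rare. Products of hybrid joints at the inversional sites were not counted here. Igkv8-26, the plus-strand gene, held 0.0201, 0.0174 and 0.0225% of Vκ junctions in WT given STI-571 with DMSO and 0, 0.0425 and 0.0306% in *Ku70-/-* with the coding bait. Joints at the deletional sites made up 0.108% ± 0.0110 of WT and 0.124% ± 0.111 of *Ku70-/-* coding bait junctions at break sites (SD, n = 3, exact permutation p = 0.9). With the signal bait these were 0.0349% ± 0.0117 and 0.115% ± 0.112 (SD, n = 3, exact permutation p = 0.4). Without replicate 1 the *Ku70-/-* libraries were all above the WT ones, by 0.0774 and 0.138 points (exact permutation p = 0.1 in each). With each distinct joint counted once the direction was the opposite, with *Ku70-/-* minus WT over all 3 libraries at -0.513 and -0.816 points (exact permutation p = 0.1 in each).

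In cycling *Ku70-/-* cells many junctions of the region lay away from any break site. Junctions over 200 bp from a site made up 30.3, 32.8 and 28.2% of region junctions with the coding bait and 18.5, 17.4 and 6.36% with the signal bait. With STI-571 and DMSO the *Ku70-/-* libraries gave 0.0583, 2.46 and 2.37% and 0.782, 1.47 and 0.493%. Every *Ku70-/-* library given an inhibitor was below every cycling one. Under L82-G17 with the signal bait 657 of 19905, 789 of 19734 and 383 of 21276 region junctions lay there, larger shares than with DMSO. Shares were also larger than with DMSO under L67 with the coding bait, at 655 of 23652, 686 of 24158 and 731 of 24143. Under L82-G17 with the coding bait and L67 with the signal bait they overlapped those with DMSO. The highest WT library was at 0.666%. The sites were placed on arrested WT signal bait libraries, so that low shares there are partly built in. The 26 pileups away from sites passed the level of 0.1% through cycling *Ku70-/-* libraries, 16 with the coding and 10 with the signal bait, so that being highest there follows from how they were chosen.

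These 26 positions lay 226 to 7730 bp from the nearest break, with a median of 1632 bp. At 21 of them the prey ran away from the break, 10 on its signal side and 11 on its coding side. The highest, at 69891933 on the signal side of Igkv12-38, 1246 bp from its break, held 1.10, 0.846 and 0.394% of coding bait Vκ junctions in cycling *Ku70-/-* cells. It held 0, 0.00433 and 0.0297% with STI-571 and DMSO and 0 in WT. Positions at 70114072 near Igkv8-27 and at 70027025 near Igkv6-32 reached means of 0.637 and 0.619% with the same bait. The cycling *Ku70-/-* libraries of both baits held 2921 to 9001 Vκ junctions each, so that such shares rest on few junctions.

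At break sites the cycling *Ku70-/-* joints were hybrid in 51.5, 49.9 and 52.4% with the coding bait and 16.4, 53.3 and 30.5% with the signal bait. Arrested minus cycling was -7.96 and 33.8 points (exact permutation p = 0.1 in each). Within 10 bp of the break lay 39.7, 34.8 and 42.9% with the coding and 71.6, 82.4 and 62.4% with the signal bait, where arrested minus cycling was 16.3 and -17.7 points (exact permutation p = 0.1 in each). These differences without replicate 1 of the DMSO group were -9.48 and 27.03 points for hybrids and 13.9 and -17.2 points for trimming, with p of 0.1 for the coding and 0.2 for the signal bait in each exact permutation test. Counting distinct joints once took the coding bait difference in trimming to -0.228 points. Microhomology over 1 bp made up 40.4% ± 7.98 of cycling and 16.7% ± 2.96 of arrested coding bait joints (SD, n = 3, exact permutation p = 0.1). For the signal bait it was 15.9% ± 3.60 and 15.8% ± 3.804 (SD, n = 3, exact permutation p = 1). Arrested minus cycling was -22.02 and 2.10 points without replicate 1 (exact permutation p = 0.1 and p = 0.6).

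L82-G17 went with fewer hybrid joints in *Ku70-/-* cells. The libraries gave 28.8, 29.6 and 32.3% with the coding bait and 48.4, 47.9 and 49.4% with the signal bait, all below the DMSO libraries, by -13.1 and -18.6 points (exact permutation p = 0.1 in each). Without replicate 1 of the DMSO group these were -11.5 and -11.9 points. Under L67 the hybrid shares of 42.9, 42.3 and 40.5% and of 65.7, 67.5 and 62.1% overlapped those with DMSO (exact permutation p = 0.5 and p = 1), with differences of -1.39 and -2.09 points. Without replicate 1 these turned to 0.122 points with overlap and 4.66 points with no overlap (exact permutation p = 0.9 and p = 0.2). The doses of the inhibitors differ, so they were not compared with each other.

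Fewer junctions lay within 10 bp of the break under both inhibitors in *Ku70-/-* cells. Within 10 bp of the break lay 42.0, 45.1 and 43.9% of coding bait and 46.8, 48.3 and 44.9% of signal bait junctions under L82-G17, by -11.8 and -7.73 points against DMSO. Under L67 the values were 51.4, 49.8 and 51.0% and 51.0, 51.2 and 51.1%, by -4.72 and -3.29 points. None of these libraries overlapped the DMSO ones (exact permutation p = 0.1 in each). Without replicate 1 the differences were -9.35 and -8.22 points under L82-G17 and -2.28 and -3.78 points under L67, also with no overlap (exact permutation p = 0.1 in each). Within 5 bp in place of 10 the signal bait differences were above 0, at 3.30 and 1.85 points, with p of 0.7 and 1 by the exact permutation test, and within 20 bp the L67 difference with the coding bait was 0.259 points.

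Microhomology over 1 bp in *Ku70-/-* cells was higher under L82-G17 by 5.18 points with the coding and 4.65 points with the signal bait (exact permutation p = 0.1 in each). Without replicate 1 these were 3.47 and 2.50 points (exact permutation p = 0.1 and p = 0.2). Under L67 it was higher by 1.82 and 4.20 points (exact permutation p = 0.4 and p = 0.1), and by 0.120 and 2.06 points without replicate 1 (exact permutation p = 0.8 and p = 0.2). With each distinct joint counted once the L67 difference with the signal bait was -0.679 points.

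The share of the region in *Ku70-/-* cells was higher by 1.80 points under L82-G17 with the coding bait (exact permutation p = 0.1) and differed by -0.781 points with overlap with the signal bait (exact permutation p = 0.9). Under L67 it differed by -0.251 and -1.78 points (exact permutation p = 0.8 and p = 0.1). The differences without replicate 1 of the DMSO group were 1.02 and 0.298 points under L82-G17 (exact permutation p = 0.2 and p = 0.3) and -1.03 and -0.698 points under L67 (exact permutation p = 0.2 in each).

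In WT cells the region's share was higher by 0.619 and 0.837 points under L82-G17 (exact permutation p = 0.1 in each) and by 0.257 and 0.429 points under L67 (exact permutation p = 0.4 and p = 0.3). WT hybrid joints under L82-G17 made up 0.495, 0.598 and 0.605% with the coding bait, 0.296 points above DMSO (exact permutation p = 0.1). Whether the inhibitor and arrest effects differ between genotypes was tested 18 times by permutation within genotype. The lowest p was that for hybrid joints under L82-G17 with the coding bait, where the effects differed by -13.4 points (exact permutation p = 0.005, the smallest possible, adjusted p = 0.09) and by -11.8 points without replicate 1, and no other adjusted p was below 0.126.

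Use of single sites was fitted with limma on log2 shares over all sites of the Vκ part. With the coding bait L82-G17 in WT gave 5 calls among the 18 region sites tested, where 35.7% of all sites tested were called. Igkv6-29 rose from 0.0334, 0.0365 and 0.0303% to 0.0697, 0.0711 and 0.0534%, by 0.95 on the log2 scale (SE 0.14, limma adjusted p = 0.00579). Igkv8-28 rose to 0.389, 0.488 and 0.402%, by 0.72 (SE 0.10, limma adjusted p = 0.00579).

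Igkv18-36 rose from 0.192, 0.207 and 0.205% to 0.387, 0.304 and 0.271%, by 0.65 (limma adjusted p = 0.0152). Igkv12-44 rose to 3.31, 3.29 and 3.42%, by 0.21 (limma adjusted p = 0.0348). Site 69829343 fell to 1.12, 0.923 and 0.905%, by -0.42 (limma adjusted p = 0.0209). These libraries held 34509 to 39064 region junctions against 65195 to 70914 with DMSO, and the part of depth in the calls was not tested. A fit over all 24 libraries of the bait called none of them. With each of the 6 libraries left out in turn, Igkv6-29 and Igkv8-28 were called in 6 of 6 fits and Igkv12-44 in 0 of 6. Igkv18-36 was not called without DMSO replicates 1 or 3, and site 69829343 was not called without L82-G17 replicate 2 or any DMSO replicate. Centred on the median site, Igkv12-44 was not called (limma adjusted p = 0.0886).

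L67 in WT with the coding bait gave 1 call of 18, with 5.22% called over all sites. It was Igkv18-36, which rose to 0.256, 0.304 and 0.298%, by 0.50 (limma adjusted p = 0.0249). Igkv18-36 was not called with values centred on the median site (limma adjusted p = 0.0503) or in the fit over all 24 libraries, and with 1 library left out it was called in 1 of 6 fits, that without L67 replicate 1. In signal bait libraries limma called 0 of 17 region sites under L67 and 0 of 17 under L82-G17 in WT, where 0% and 9.73% of all sites were called. At an unadjusted p under 0.05 these were 0 and 4 of 17, against 14 of 114 and 34 of 113 over all sites.

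In *Ku70-/-* cells limma called no region site under either inhibitor, and 0% of all sites in each of the 4 comparisons. At an unadjusted p under 0.05, 1 of 16 region sites passed under L82-G17 with the coding bait and none of 16, 15 and 15 in the other 3. Without replicate 1 of the DMSO group, 9 sites of the whole Vκ part were called under L82-G17 with the coding bait.

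Between genotypes limma called 0 of 17 region sites with the coding bait, where 7.14% of all sites were called. Of the 17, 2 had an unadjusted p under 0.05, against 20 of 112 over all sites. The median difference was -0.22 on the log2 scale over the region and -0.56 over all sites, and with the signal bait 0.25 and -0.44. With the signal bait it called 1 of 17, where 11.5% of all sites were called. This was Igkv7-33, with 86, 250 and 32 junctions in WT and 0, 2 and 2 in *Ku70-/-*, so that its fitted difference of -4.24 on the log2 scale (limma adjusted p = 0.0415) depends on the junction added to each count. Igkv7-33 reached the average of at least 50 junctions only through its WT libraries, so that a lower *Ku70-/-* value is partly built in. With 5 junctions added it was not called, nor without *Ku70-/-* replicate 2 or 3 or WT replicate 1. Without WT replicate 2 it fell below the average of 50 junctions and was not tested. It was thus called in 2 of the 5 fits with 1 library left out that tested it.

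Leaving out *Ku70-/-* replicate 1 raised these counts. The median difference was then 0.08 over the region and -0.05 over all sites with the coding bait, and 0.20 and -0.07 with the signal bait. In coding bait libraries limma then called 5 of 18 region sites, where 38.9% of all sites were called. Igkv6-32 was higher in *Ku70-/-* by 0.62 (SE 0.067, limma adjusted p = 0.00320) and Igkv8-26 by 0.91, while Igkv5-39 was lower by -0.70, Igkv18-36 by -0.50 and site 69994105 by -0.78 on the log2 scale.

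For the signal bait 8 of 17 were called, where 54.5% of all sites were called. Igkv8-28 was higher in *Ku70-/-* by 4.02 (SE 0.76, limma adjusted p = 0.0113), Igkv5-45 by 0.98, Igkv8-30 by 0.97, Igkv5-39 by 0.95, Igkv6-32 by 0.75 and Igkv12-44 by 0.71. Site totals hold both kinds of end, and most Igkv8-28 junctions of these *Ku70-/-* libraries were hybrid joints, as given above. With the coding bait Igkv8-28 differed by -0.20 (limma adjusted p = 0.358). Igkv7-33 and Igkv6-29 were lower by -3.72 and -2.15. They reached the average of at least 50 junctions through the WT libraries, so that their lower *Ku70-/-* values are partly built in. Both counts are below the share called over all sites.

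Set against the rest of the Vκ part, the region's joints differed most in end kind in *Ku70-/-* cells. The region holds 19 inversional and 2 deletional sites, against 75 and 63 over the whole Vκ part. The part of site orientation in the differences below was not tested. With STI-571 and DMSO hybrids made up 43.3% ± 2.77 in the region and 33.4% ± 4.80 in the rest with the coding bait and 67.2% ± 11.8 and 41.5% ± 4.33 with the signal bait (SD, n = 3). Region minus rest was 7.41 to 12.1 and 14.3 to 44.1 points, above 0 in 3 of 3 libraries of each bait (exact sign permutation p = 0.25, the smallest that 3 libraries allow). Junctions within 10 bp made up 55.5% in the region and 45.7% in the rest with the coding bait, again higher in 3 of 3 libraries. In signal bait libraries they made up 54.4% and 52.9%, and region minus rest ranged from -3.69 to 4.08 points (exact sign permutation p = 0.5). Without replicate 1 region minus rest was 11.2 and 16.4 points for hybrids and 9.48 and 4.01 points for junctions within 10 bp, above 0 in 2 of 2 libraries in each.

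In WT the region had more 1-bp microhomology than the rest, by 6.06 points with the coding and 7.39 points with the signal bait, in 3 of 3 libraries of each (exact sign permutation p = 0.25), and by 0.791 and 2.45 points with distinct joints counted once. Its coding ends were trimmed by a median of 2 bases against 3, and microhomology over 1 bp with the coding bait made up 0.727% against 2.42%, lower in 3 of 3 libraries, though by only -0.0838 points with distinct joints counted once. With the signal bait it made up 0.859% against 0.667%, and region minus rest ranged from -0.117 to 0.374 points (exact sign permutation p = 0.5). Igkv8-27 contributed 8.19% of the region's WT signal bait junctions at sites with at least 100 junctions and the G-ended site outside 0.435% of those of the rest.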

How the data were processed

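HTGTS-JoinT-seq junctions were analysed from 48 libraries of 16 groups with 3 libraries each. The deposited files list 1 junction per row with its positions, strands and read coordinates. Per the methods and labels, the authors demultiplexed reads with fastq-multx, trimmed adapters with SeqPrep, used Seqtk to draw 500000 read pairs for every library, mapped these to mm9 with the Transloc pipeline and Bowtie2, and added junctions near the bait. Duplicates were kept, so repeated rows need not be separate events, and any error from counting covers counting only. Replicate numbers follow the order of deposition and were not used to pair libraries. The paper calls its experiments biological repeats but does not describe the inhibitor libraries used here, and the labels do not say which libraries came from separate cultures, so that the spread behind the p-values may be partly technical.

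Junctions were counted with Python 3.11.15, numpy 2.4.6, pandas 2.3.3 and scipy 1.17.1. Break sites are positions with at least 30 pooled junctions in arrested WT signal bait libraries, none higher within 50 bp and CAC at the break. Junctions went to the nearest site within 200 bp. Trimming was taken within 100 bp and joint structure up to 20 bp of overlap or gap. A prey running into the signal side of a site is a signal end, otherwise a coding end.

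Groups were compared by exact permutation of libraries (128 comparisons computed, unadjusted), region and rest by exact sign permutation, and differences between genotypes by permutation within genotype with Benjamini-Hochberg adjustment over 18 tests. Site usage was fitted with limma 3.58.1 in R 4.3.3 on log2 junctions per 1000 site junctions with 1 junction added, over sites averaging at least 50 junctions, with Benjamini-Hochberg adjustment over all sites at 0.05. The fit was tested on simulated data. The analysis of variance in the methods was not used.

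The sites named are the 6 most used per bait in arrested WT, the 2 largest rises and 2 largest falls per site comparison, and every unannotated site or position with a mean of at least 0.1%. Other genes named were chosen after their values were seen. The region, lists and tests were chosen with earlier results of these data known.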

Additional observations from a re-analysis of the deposited data

Results flagged for a closer look

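Several effects ran in opposite directions in the genotypes, with every library of a group on one side. The region's share differed between signal and coding bait by 3.76 points in *Ku70-/-* and -3.45 points in WT, which are 7.21 points apart, and this difference was not tested. Without replicate 1 of *Ku70-/-* cells given STI-571 with DMSO, which stood apart, the *Ku70-/-* value was 1.90 points. Hybrid joints with the coding bait differed between L82-G17 and DMSO by -13.1 points in *Ku70-/-* and 0.296 points in WT, a difference of -13.4 points (exact permutation p = 0.005, adjusted p = 0.09 over 18 tests), and -11.8 points without that replicate.

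The other flagged differences concern joint structure and were not tested. Under L82-G17 with the signal bait, direct joints differed from DMSO by -11.9 points in *Ku70-/-* and 3.20 points in WT, -15.1 points apart. In the same libraries 1-bp microhomology differed by 6.53 and -2.93 points, 9.46 points apart. A single gene, that with G as its last coding base, held most of the 1-bp microhomology of WT signal joints, as given above. With STI-571 and DMSO it had a 1-bp overlap in 91.2% of 12835 WT signal bait junctions. The region's other sites with at least 100 junctions had one in 1.35% of 143951. The part of this gene's use in the WT differences in direct joints and 1-bp microhomology was not tested. Between arrested and cycling cells with the coding bait, 1-bp microhomology differed by 8.59 points in *Ku70-/-* and -5.43 points in WT, 14.0 points apart. Insertions differed there by -9.91 and 4.25 points, -14.2 points apart, and with the signal bait by -2.77 and 1.17 points, -3.94 points apart. Cycling *Ku70-/-* libraries held only 53 to 192 distinct joints in the region, and the part of that in these differences was not tested. Without replicate 1 of the *Ku70-/-* DMSO group, the *Ku70-/-* values were -6.11 points for direct joints and 3.19 points for 1-bp microhomology under L82-G17 and, for arrested minus cycling, 4.27 points for 1-bp microhomology and -9.41 and -2.45 points for insertions, all still without overlap.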

How the results depend on the processing

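Of the planned and added alternatives, 341 were scored as unchanged, 9 lost a call, 14 moved a count and 22 turned a direction. Leaving out 1 library gave 454, 20, 36 and 18. Differences that kept their sign were scored as unchanged even where their size changed. Small changes in a count of called sites were scored as unchanged too, so that single calls could be gained or lost among these. The scores cover 56 of the 128 permutation comparisons computed. The other 72, which include the flagged joint structure differences, had 708 values tried, of which 76 turned a direction. The cause was not tested. As shares of all junctions, the region's share in *Ku70-/-* arrested minus cycling was 1.23 points with the coding and 8.41 with the signal bait, and *Ku70-/-* minus WT with the coding bait was -3.65. With each distinct joint counted once, *Ku70-/-* minus WT was 18.3 and 12.004 points for direct joints and -0.513 and -0.816 for deletional sites (coding and signal bait), arrested minus cycling *Ku70-/-* was -0.228 for junctions within 10 bp with the coding bait, and signal minus coding bait was 3.24 for 1-bp microhomology in WT and 3.10 for junctions within 10 bp in *Ku70-/-*. In the same counting L67 minus DMSO was 0.596 for hybrids in *Ku70-/-* with the coding bait, -0.766 for the region's share in WT and -0.679 for longer microhomology in *Ku70-/-* with the signal bait, and L82-G17 minus DMSO was 0.940 for the region's share in *Ku70-/-* with the signal bait. Within 20 bp, L67 in *Ku70-/-* gave 0.259 with the coding bait, and within 5 bp L67 and L82-G17 gave 1.85 and 3.30 with the signal bait. A window of 100 bp gave 0.600 for longer microhomology, arrested minus cycling, in *Ku70-/-* with the signal bait, and joints to the same kind of end alone gave 15.3 for junctions within 10 bp, signal minus coding bait, in *Ku70-/-*.

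Counts of called sites moved as follows. Centred on the median site, 13 of all sites were called between genotypes with the coding bait, 0 region sites under L67 in WT with the coding bait and 6 of all sites under L82-G17 in WT with the signal bait. A fit over all 24 libraries of a bait called 1 region site between genotypes with the coding bait and 3 with the signal bait, where it called 20 of all sites. It called 0 of all and 0 region sites under L67 and under L82-G17 in WT with the coding bait, 1 of all sites under L82-G17 in *Ku70-/-* with the coding bait and 0 under L82-G17 in WT with the signal bait. With 5 junctions added, 0 region sites were called between genotypes with the signal bait, and with sites of at least 10 junctions 1 of all sites was called under L67 in *Ku70-/-* with the signal bait.

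Leaving out 1 library at a time gave these ranges. Region share, L67 in *Ku70-/-* with the coding bait, -1.03 to 0.216. Hybrids there, -2.60 to 0.122, and with the signal bait -6.18 to 4.66. Region share between genotypes with the coding bait, -0.258 to 0.988, and deletional sites, -0.0297 to 0.0774. Longer microhomology, arrested minus cycling *Ku70-/-* with the signal bait, -2.01 to 2.10. Region share, L82-G17 in *Ku70-/-* with the signal bait, -1.44 to 0.298. Within 10 bp, signal minus coding bait in *Ku70-/-*, -2.32 to 1.87, highest without replicate 1 of both baits. All and region sites called between genotypes ranged from 5 to 44 and 0 to 5 with the coding bait and from 7 to 61 and 0 to 8 with the signal bait, highest without *Ku70-/-* DMSO replicate 1. Under L67 in WT with the coding bait they ranged from 0 to 4 and 0 to 1, lowest for all sites without WT DMSO replicate 2, and under L82-G17 from 21 to 38 and 2 to 4, lowest without WT DMSO replicates 3 and 1. All sites called under L82-G17 ranged from 0 to 9 in *Ku70-/-* with the coding bait, highest without *Ku70-/-* DMSO replicate 1, and from 0 to 1 in WT with the signal bait.

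Chosen after seeing the data, counting distinct joints once gave region minus rest differences with the signal bait of -0.873 for longer microhomology in WT and of 1.65 for 1-bp microhomology and 1.19 for insertions in *Ku70-/-*. Without *Ku70-/-* DMSO replicate 1, also chosen afterwards, the L67 effect on hybrids differed between genotypes by 0.0856 with the coding and 4.58 with the signal bait, and region minus rest for 1-bp microhomology in *Ku70-/-* with the signal bait was 2.18. No paired analysis was done, because replicate numbers were given in order of deposition and the labels do not say which libraries share a culture. The low junction counts of cycling *Ku70-/-* libraries limit all values from them.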

Other observations

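Besides the break sites, 12 prey positions of the region had at least 30 pooled junctions in arrested WT signal bait libraries but no CAC at the position. Their kind of end was not determined. The pooled counts at these positions ranged from 32 to 300, and the highest was at 70024072, within Igkv6-32. The 2 remaining unannotated sites, site 70031645 and site 70094189, had at most 0.00145% of Vκ junctions in any library given STI-571 with DMSO.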
